A study of Rattus norvegicus with 4 samples.

Results

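AMPA and kainate receptors are the ionotropic glutamate receptors that open on glutamate release without the voltage-dependent magnesium block of the NMDA receptor. AMPA receptors, tetramers of the Gria1 to Gria4 products, carry most of the fast excitatory current in the hippocampus, and their insertion into and removal from the synapse are a known basis of synaptic plasticity. Kainate receptors are built from the Grik1 to Grik3 products, which form channels, with the Grik4 and Grik5 products, which bind kainate with high affinity, and they act on both sides of the hippocampal synapse. The 9 genes are those of the receptor families, a list that no measured value enters although it was proposed with earlier results of these data known, and every noncontrol spot whose RefSeq accession resolves to one of them was kept. Probes were found for 8 of the 9 genes, and Grik5 was the one without a probe matched by accession. The members were 10 probes on 28 spots, of 41012 noncontrol probes on 43379 spots, of which 10759 probes were named and covered 8893 genes.

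The RNA came from whole hippocampi of male Wistar rats that were 10 weeks old at the start. The sedentary group (Sed, 10 rats) lived in standard cages without a wheel. The wheel running group (WR, 8 rats) ran voluntarily for 4 weeks on a wheel without resistance, and the resistance wheel running group (RWR, 8 rats) for the same time against a load raised from 4.5 g in the first week to 30% of body weight. All rats were housed singly. Equal amounts of replicate RNA were pooled within each group, with the number of rats per pool not settled by the sources used here, and compared on 4 two-colour chips, with WR and Sed on chips 1 and 2, RWR and Sed on chips 3 and 4, and the dyes exchanged on the second chip of each pair. Both chips of a comparison were hybridized with identical pools and repeat it technically: there is 1 biological replicate, the conditions could not be tested, and the spread between rats is unknown. Because whole hippocampus was used, fewer cells of a type and less RNA per cell cannot be told apart. A value given below as a log2 ratio is running over sedentary on that scale, from the deposited processed signals, and a p-value is that of the scanner software's error model for a single chip.

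No AMPA or kainate subunit was selected. The rule used here takes the fold cutoffs and the p-value threshold of the study and applies them to each chip, so that both chips must show more than 1.5-fold or less than 0.75-fold with a p-value under 0.01; the study's methods ask for opposite regulation on the swapped chips and do not say that the cutoffs hold on each chip, so the rule may be stricter than theirs. The count was 0 of 10 probes for WR and 0 of 10 for RWR, against 0.0317% of all probes in WR and 0.0585% in RWR. At such shares, a count of 0 among 10 probes says little about the subunits. The count stayed at 0 without the p-value filter. With the fold cutoffs applied to the mean of a pair and no p-value filter, an alternative chosen after seeing the data, 0 members passed in WR and 1 in RWR (Grik3, at the limit of detection), against 6.54% and 9.03% of all probes. The ratios of the chips of a pair, turned to running over sedentary, correlated at -0.761 for WR and -0.686 for RWR over all probes, so that most of a single chip's ratio followed the dye and not the pool, and the mean of a pair is the value in which a probe's dye term cancels. Below those thresholds, 5 of the 6 AMPA probes were above sedentary on both chips in WR and all 6 in RWR. In WR, 7 of the 10 probes (Gria1, both Gria2 probes, Gria3, 1 of the Gria4 probes, Grik2 and Grik4) were above sedentary on both chips and none was below on both, where 11.6% of all probes were above on both chips and 10.7% below. In RWR, 6 probes were above on both chips and 1 was below, against 12.4% and 14.8% of all probes. Those 6 were the 6 AMPA probes, one of them, Gria2 A_44_P289627, by 0.00 on chip 4, and the probe below was Grik3. Among the 24953 probes that exceeded background clearly in all 8 measurements, as 9 of the 10 members did, the shares above sedentary on both chips were 14.5% in WR and 16.7% in RWR. Being on 1 side on both chips is the same as having a mean that exceeds its distance from either chip of the pair. That distance is called the chip deviation below. Its median over the member probes was 0.05 in WR and 0.08 in RWR. Over the probes well above background everywhere it was 0.10 in each. Where the chip deviation is smaller, a smaller mean is enough to be on 1 side, so the shares are not like for like. The median log2 ratio over the 10 probes was 0.08 in WR and 0.08 in RWR, where the median of all probes was 0.00 and -0.00. The WR median was 0.12 on chip 1 alone. The 10 probes share 8 genes, 4 chips and the same pools, so these counts are descriptions of the members and carry no test.

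**Figure D1:**
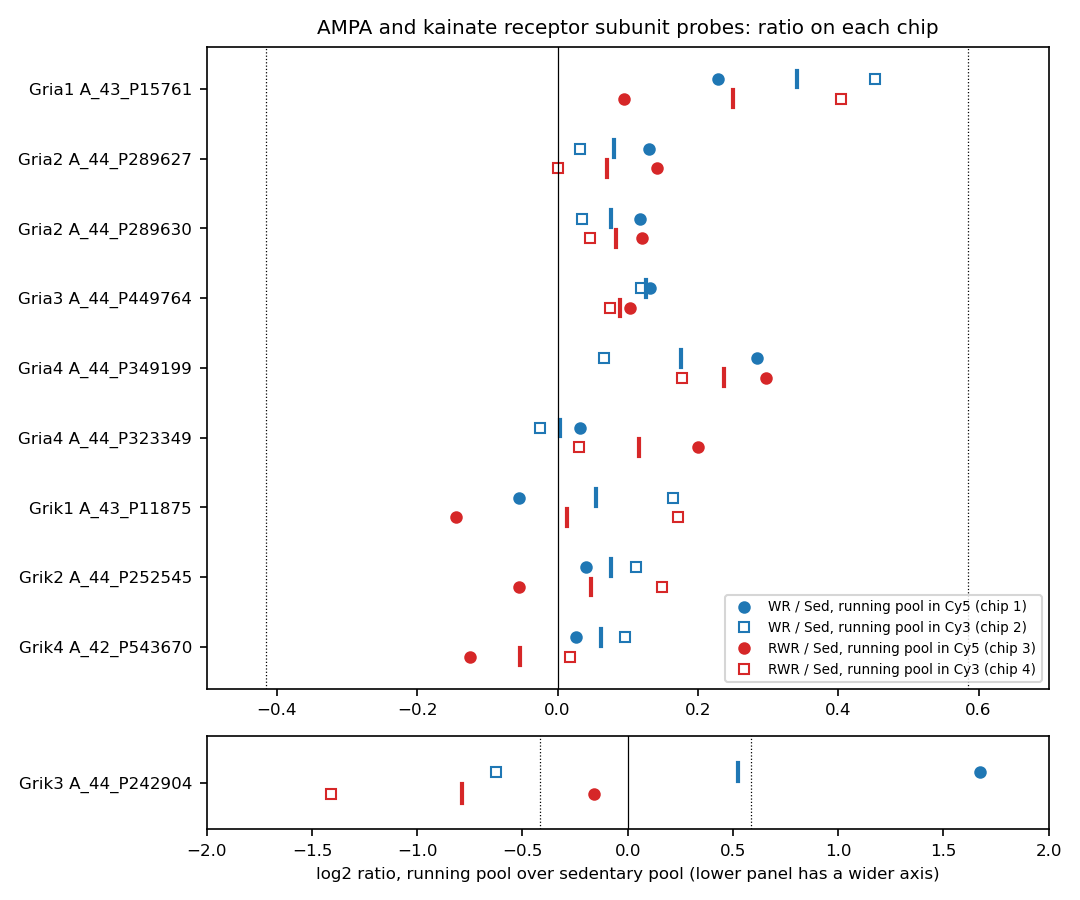
Log2 ratio of running over sedentary pool for each AMPA and kainate subunit probe on each chip; filled circles are chips with the running pool in Cy5, open squares those with it in Cy3, short bars the mean of a pair, and dotted lines the 0.75-fold and 1.5-fold thresholds. All 6 AMPA probes have positive pair means in both comparisons, Gria1 has the largest pair means of the upper panel, though Gria4 A_44_P349199 lies to its right on chips 1 and 3, and Grik3, on the wider axis of the lower panel, ranges from -1.41 to 1.67.

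Gria1, which encodes the GluA1 subunit recruited to synapses during long-term potentiation, had the largest mean ratio among the 9 probes well above background. Its single probe, A_43_P15761 for NM_031608, gave log2 ratios of 0.23 and 0.45 on the WR chips and of 0.09 and 0.40 on the RWR chips. All 4 values were above 0, and in both pairs the chip with the running pool in Cy3 gave the higher value. The mean was 0.34 in WR, a ratio of 1.27-fold, and 0.25 in RWR, a ratio of 1.19-fold, with chip deviations of 0.11 and 0.15 and an error of 0.15 from the scanner's model in each comparison. Of the probes well above background everywhere, 0.421% had a higher mean in WR and 1.46% in RWR. The p-value was 0.282 and 0.0272 on chips 1 and 2, and 0.639 and 0.0506 on chips 3 and 4, so no chip passed 0.01.

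The Gria1 probe was printed 10 times per chip, which shows how far the chip itself scatters around these values. After outlier spots were left out, 9, 9, 10 and 10 spots remained on chips 1 to 4, and every one of them was above 0. The spots ran from 0.19 to 0.30 on chip 1, from 0.41 to 0.50 on chip 2, from 0.04 to 0.13 on chip 3 and from 0.36 to 0.44 on chip 4. Spots of a chip therefore differed by less than the chips of a pair did, with an SD over spots of 0.03 on each chip. The p-value of single spots was under 0.05 at 8 of 9 spots on chip 2, at 4 of 10 on chip 4 and at none on chips 1 and 3, and at no spot was it under 0.01. Spots of 1 chip share the labelled pools and are no replicates of a condition.

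**Figure D2:**
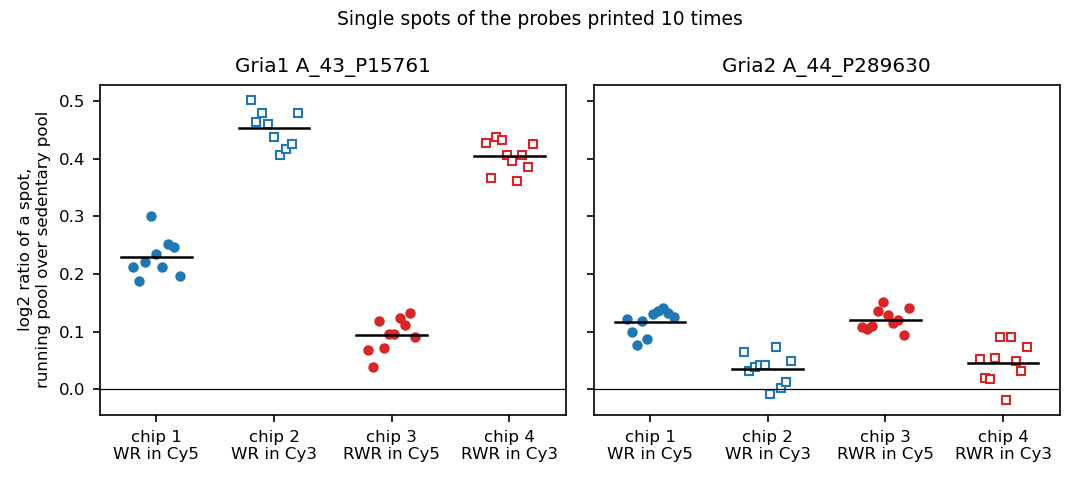
Log2 ratio of running over sedentary pool at each spot of the Gria1 probe (left) and of the Gria2 probe printed 10 times (right), by chip, with the mean as a horizontal bar; filled circles are chips with the running pool in Cy5. Every Gria1 spot is above 0 on all 4 chips, with the spots of a chip closer together than the chips of a pair, and 2 of the Gria2 spots fall below 0.

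Gria2, whose edited product makes AMPA receptors nearly impermeable to calcium, was measured by a pair of probes with small positive values. Probe A_44_P289627 gave 0.13 and 0.03 on the WR chips and 0.14 and 0.00 on the RWR chips, and probe A_44_P289630 gave 0.12 and 0.03, and 0.12 and 0.05. Both probes had means of 0.08 in WR, and of 0.07 and 0.08 in RWR, between 1.05-fold and 1.06-fold. The lowest p-value of either probe on any chip was 0.490. Of the 10 spots of A_44_P289630, all were above 0 on chips 1 and 3, and 9 on chips 2 and 4. On each chip the ratios of the 2 probes differed by less than those of the chips of a pair did, and the chip with the running pool in Cy5 gave the higher value in every pair.

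Gria3, the subunit that mostly pairs with GluA2, was read by probe A_44_P449764 for NM_032990, with 0.13 and 0.12 on the WR chips and 0.10 and 0.07 on the RWR chips. These were the closest values of any member within a pair, with chip deviations of 0.01 and 0.01 around means of 0.13 and 0.09. Of the probes well above background, 8.49% had a higher mean in WR and 16.1% in RWR.

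Gria4, a subunit with fast kinetics that is prominent in interneurons and in the young brain, had 2 probes that did not give the same picture. Probe A_44_P349199 for NM_017263 gave 0.28 and 0.07 on the WR chips and 0.30 and 0.18 on the RWR chips, with means of 0.18 and 0.24. Probe A_44_P323349 gave 0.03 and -0.03 on the WR chips and 0.20 and 0.03 on the RWR chips, with means of 0.00 and 0.12. The first probe was above sedentary on both chips of each comparison, and the second only in RWR. The lowest p-value of either probe was 0.150.

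Of the kainate subunits, Grik1, Grik2 and Grik4 had pair means between -0.05 and 0.08. Grik1, the GluK1 subunit known from hippocampal interneurons, gave -0.06 and 0.17 on the WR chips and -0.14 and 0.17 on the RWR chips (probe A_43_P11875 for NM_017241). Grik2, the GluK2 subunit of mossy fibre synapses, gave 0.04 and 0.11, and then -0.06 and 0.15 (probe A_44_P252545 for NM_019309). Grik4, the high-affinity GluK4 subunit that is abundant in CA3, gave 0.03 and 0.10, and then -0.12 and 0.02 (probe A_42_P543670 for NM_012572). Grik2 and Grik4 were thus above sedentary on both WR chips, while none of these 3 genes kept 1 direction on both RWR chips. Their lowest p-value on any chip was 0.429. The WR mean of Grik2 was 0.08 from the deposited ratios, 0.03 after normexp background correction with loess, and 0.02 with loess and no background correction.

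Grik3, the low-affinity GluK3 subunit, was the one probe at the limit of detection (A_44_P242904 for NM_181373). Its processed signals ran from 4.24 to 28.4 over the 8 measurements. The log2 ratios were 1.67 and -0.62 on the WR chips, with opposite signs. The WR pool was not well above background on either chip and the sedentary pool on 1 of them, so no fold is given. On the RWR chips the ratios were -0.16 and -1.41, with a p-value of 0.706 and 0.00113, and the RWR pool was well above background on 1 of the 2 chips against both for the sedentary pool. With chip 4 alone Grik3 would be selected as lower in RWR, and it is the one member for which leaving out a chip makes a call.

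Each dye held the sedentary pool on 2 chips and each running pool on 1, so signals could also be compared within a dye, after the intensity distributions of the 4 chips had been brought together by Aquantile normalization. For Gria1, the Cy3 log2 signals were 10.49 and 10.51 in Sed, 10.79 in WR and 10.77 in RWR, and the Cy5 log2 signals were 10.34 and 10.36 in Sed, 10.72 in WR and 10.61 in RWR. Both running pools thus lay above both sedentary values in each dye, by 0.25 to 0.37 from the sedentary mean, where the sedentary values of a dye lay 0.02 apart. For Gria3 the Cy3 log2 signals were 10.09 and 10.00 in Sed, 10.18 in WR and 10.14 in RWR, and the Cy5 log2 signals were 10.06 and 10.06 in Sed, 10.22 in WR and 10.10 in RWR. Gria3 followed the same order of pools at a smaller distance. With each dye of each chip centred on its median instead, Gria1 lay 0.32 above the sedentary mean in Cy3 and 0.40 in Cy5 for WR. For RWR the Gria1 distances were then 0.15 and 0.29, and the Cy3 value of Gria3 in RWR lay between the sedentary values.

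In WR, 8 of the 10 probes lay above both sedentary values in both dyes and none below, against 14.1% and 9.49% of all probes. The exceptions were Grik3 and the Gria4 probe A_44_P323349, which was below both sedentary values in Cy3 and above both in Cy5. In RWR, 6 probes lay above and 1 below, against 11.4% and 13.2% of all probes. Those above were Gria1, both Gria2 probes, Gria3, Gria4 A_44_P349199 and Grik2, and the one below was Grik4. Some placements in both counts were narrow. In Cy5, Gria2 A_44_P289627 was at 12.7885 in WR, where Sed was at 12.7847 and 12.7739. Grik2 was at 8.287 in RWR in the same dye, where Sed was at 8.279 and 8.254. Each lay nearer to the higher sedentary value than the sedentary values lay to each other. The RWR count depends on the scaling: with each dye of each chip centred on its median, 8 probes were outside the sedentary values in WR as before, but 2 in RWR. Those 2 were Gria1 and Gria4 A_44_P349199, and this scaling placed 4.96% of all probes above and 11% below in RWR. In WR it placed 15.6% above and 7.03% below. Under it the median distance from sedentary over all probes was 0.04 in WR and -0.04 in RWR, beside 0.11 and 0.02 over the member probes. Among the probes well above background everywhere, 16.4% in WR and 12.1% in RWR were above under Aquantile normalization.

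**Figure D3:**
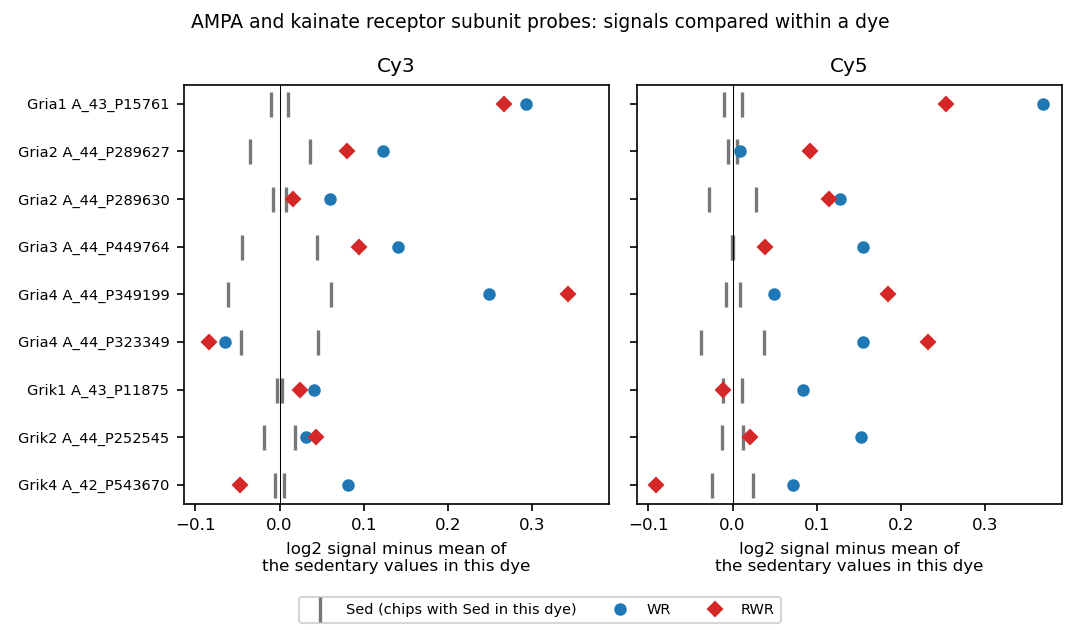
Log2 signal after Aquantile normalization minus the mean of the sedentary values in the same dye, for the 9 probes well above background, in Cy3 (left) and Cy5 (right); grey ticks are the sedentary pool on its 2 chips, blue circles WR and red diamonds RWR. Gria1 lies 0.25 to 0.37 to the right of the sedentary mean in every case, and Grik4 is the one probe with RWR left of both sedentary ticks in both dyes.

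The WR and RWR ratios share the sedentary group, so they are given side by side and not as separate support for a direction. Subtracting chips of the same dye orientation removes the dye part of a probe's ratio and, if 1 sedentary pool served all chips, leaves RWR over WR. The median of this log2 difference was -0.03 over the 10 probes and -0.01 over all probes. The difference was above 0 in both orientations at 3 member probes and below 0 at 4, where 23.4% and 28.8% of all probes were. Gria1 was lower in RWR than in WR, by -0.13 with the running pool in Cy5 and by -0.05 with it in Cy3, and Grik4 was lower by -0.15 and -0.08. Gria4 was higher in RWR, by 0.01 and 0.11 at A_44_P349199 and by 0.17 and 0.06 at A_44_P323349. Gria3 differed by -0.03 and -0.05. The largest difference among the 9 probes well above background was 0.17 in size, and none was tested, because there was 1 pool per group.

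The other glutamate receptors are given beside all named genes, whose median was 0.00 in WR and -0.00 in RWR and of which 12.2% were above sedentary on both chips and 11.6% below in WR, and 12.4% above and 15.7% below in RWR. Of the NMDA receptor subunits, 6 of 7 listed genes had a probe; their median was 0.02 in WR and 0.06 in RWR, with 2 genes above sedentary on both chips and 1 below in each comparison. Of the metabotropic receptors, 6 of 8 had a probe; their median was 0.00 in WR and -0.02 in RWR, with 2 above and 1 below in WR and 1 above and 1 below in RWR. With 1 probe per gene, the AMPA and kainate subunits had a median of 0.10 in WR and 0.06 in RWR, with 6 of 8 above in WR, and 4 above and 1 below in RWR. No gene of these lists was selected, and the differences between lists were not tested.

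Of 40 listed genes that act on these receptors, 26 had a probe, and none was selected in either comparison. In WR, 7 of the 26 were above sedentary on both chips and 1 below, with a median of 0.04, and in RWR 6 were above and 5 below, with a median of 0.03, beside the shares of all named genes just given. Among the extracellular partners, Nptx2, the activity-induced neuronal pentraxin that clusters AMPA receptors, gave 0.40 and 0.27 on the WR chips and 0.23 and 0.24 on the RWR chips. Its means of 0.34 in WR and 0.23 in RWR were the largest among the partner genes above sedentary on both chips of a comparison, and its lowest p-value on a chip was 0.0588. Nptxr, the pentraxin receptor, gave 0.28 and 0.06, and then 0.19 and 0.07.

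Among the auxiliary subunits, 8 of 16 listed genes had a probe. Cnih2, the cornichon protein that slows AMPA receptor gating, gave 0.13 and 0.30 on the WR chips and -0.08 and 0.21 on the RWR chips, and its WR mean of 0.22 was the largest of that list. The median of the list was 0.06 in WR and -0.05 in RWR, with 1 gene above sedentary on both chips in each. The stargazin family members Cacng4 and Cacng5 were not well above background in all measurements and are not described further.

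Among 13 measured genes of trafficking, scaffold and delta receptors, 2 were above and 1 below in WR, and 3 above and 4 below in RWR. Dlg1, the SAP97 scaffold that binds GluA1, gave -0.34 and 0.06 on the WR chips and -0.60 and -0.11 on the RWR chips, the chip 3 value having a p-value of 0.00559 and the chip 4 value one of 0.616. Its RWR mean of -0.36 was the largest in size of the list, with a chip deviation of 0.25. Nsf, the fusion ATPase that binds GluA2, gave -0.04 and -0.07 on the WR chips and -0.19 and -0.09 on the RWR chips. Arc, the activity-regulated gene that drives AMPA receptor endocytosis, gave 0.23 and -0.03, and then 0.30 and 0.12. Grip1, a PDZ scaffold of GluA2, gave 0.11 and 0.10, and 0.11 and 0.08, close to the same value on all 4 chips. Of the RNA editing enzymes, Adarb1, which edits the Gria2 transcript, gave 0.11 and 0.05 on the WR chips and 0.09 and -0.01 on the RWR chips.

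**Figure D4:**
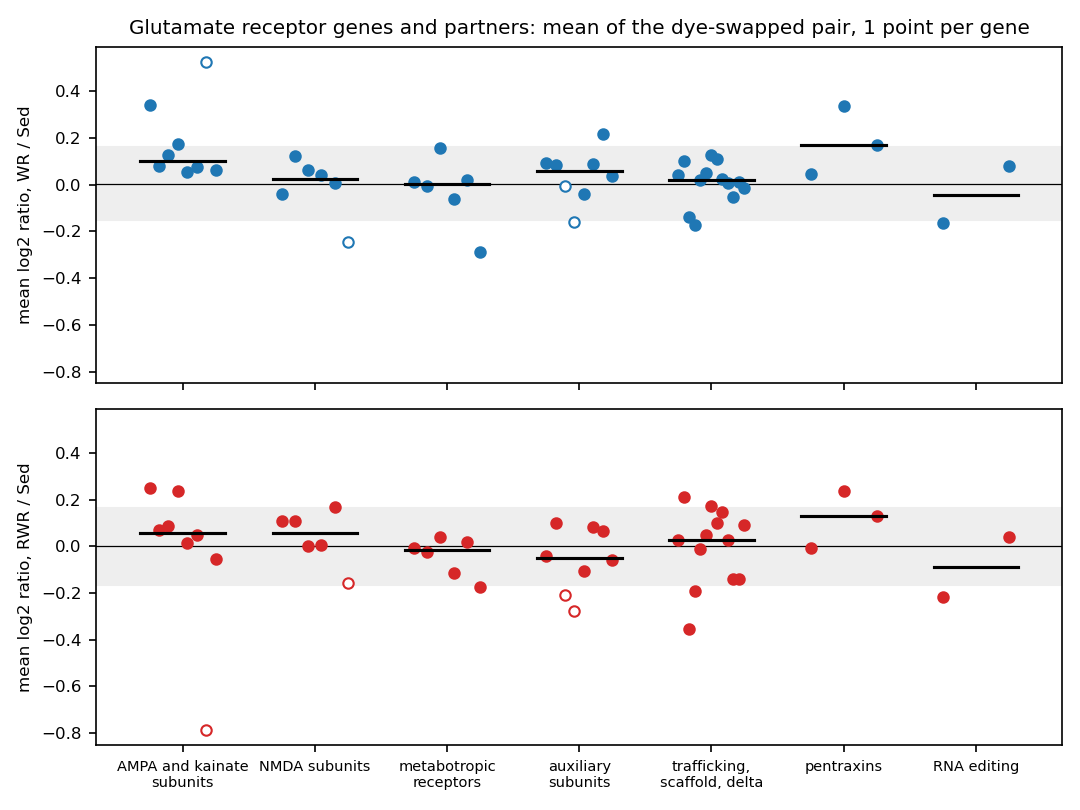
Mean log2 ratio of each dye-swapped pair for WR (upper) and RWR (lower), with 1 point per gene by list, open where the probe was not well above background in every measurement; black bars are list medians, and the grey band runs from the 5th to the 95th percentile of the probes well above background, -0.15 to 0.16 in WR and -0.16 to 0.17 in RWR. Gria1, Gria4 (probe A_44_P349199) and Nptx2 lie above the band in both panels. The other Gria4 probe, not drawn, had means of 0.00 in WR and 0.12 in RWR, inside the band. A metabotropic receptor, a scaffold gene and an RNA editing enzyme lie below the band in both panels, as does an auxiliary subunit with an open point.

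By the distance over the 4 log2 ratios, the named probes most like Gria1 among 7367 candidates were Dusp5, a phosphatase of ERK, at 0.12, Cyren at 0.18 and Tacr2, the neurokinin A receptor, at 0.20. Dusp5 gave 0.12, 0.40, 0.11 and 0.37 on chips 1 to 4. The distance takes single-chip ratios, in which a probe's dye term does not cancel, and the part of the dye in it was not tested.

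The labelled tissue was checked against marker genes. All 7 hippocampal neuron markers with a probe were well above background in every measurement, with a median of 0.02 in WR and 0.01 in RWR and with summed signals of 34874 to 37889 in Sed, 33325 to 41738 in WR and 35419 to 44502 in RWR. The 6 interneuron markers had medians of 0.07 and 0.10, and 1 of them was above sedentary on both chips, in RWR. The 8 oligodendrocyte markers had medians of -0.07 and -0.07, with 4 below on both chips in WR and 3 in RWR, and summed signals of 68614 to 87436 in Sed, 66411 to 73019 in WR and 65695 to 78004 in RWR. The 6 astrocyte and 6 microglia markers had medians between 0.00 and 0.06.

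The 6 choroid plexus markers, of which 2 were well above background in every measurement, had medians of -0.08 in WR and 0.12 in RWR, smaller than their median chip deviations of 0.29 and 0.22, and summed signals of 338 to 428 in WR, 612 to 703 in Sed and 705 to 796 in RWR. In WR 2 of the 6 were below on both chips, 1 of them selected, in RWR 2 were above on both chips, and Kl and Kcne2 were not well above background in any measurement. Of the markers of neighbouring regions, those of thalamus (2 of 4 listed with a probe) had summed signals of 517 to 570 in Sed, 423 to 545 in WR and 556 to 723 in RWR, those of striatum (5 of 5) had 222 to 329, 195 to 281 and 232 to 305, and those of cerebellum (2 of 5) had 13.3 to 36.4, 14.1 to 25.7 and 18.2 to 61.9, with Gabra6 not well above background anywhere. The part of these cell types and regions in the values of the receptor subunits was not tested.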

How the data were processed

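Hippocampal RNA pools of sedentary, WR and RWR rats were measured on 4 two-colour rat whole-genome oligo chips, grouped by the labels of each dye. The authors extracted the scans with Agilent Feature Extraction 11.0.1.1. The deposited processed signal is the background-subtracted, dye-normalized intensity of a spot in each dye. The deposited log10 ratio divides Cy5 by Cy3, and the deposited p-value comes from the error model of a single chip. The series matrix values the authors deposited are log10 ratios of the same arrays.

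Control spots and outlier spots (118 to 140 per chip) were dropped. Each ratio was put on the log2 scale with the sign that makes it running over sedentary, and repeated spots were combined by their mean ratio and median p-value. Accessions of the array, designed on rn4, were matched without version to a RefSeq table of GRCr8, used for names only. Percentages of spots well above background were 67.5 to 77.6 in Cy3 and 71.7 to 82.5 in Cy5, no spot was saturated, and the number of chips limits the precision. Same-dye signals were normalized with the Aquantile method of limma 3.58.1 (R 4.3.3); the rest used Python 3.11.15 with pandas 2.3.3. The call rules were tested on simulated data with changes larger than the mean of any member well above background. That test does not show how the rules treat changes of the size seen here. Alternatives were other background corrections with loess (normexp with an offset of 50, or none), median centring, the series matrix values, other cutoffs, bright probes alone, 1 probe per gene (the one with the highest mean signal) and each chip alone.

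Every member was named. Of the partner genes, those selected were to be named, and for each comparison the 5 with the largest mean ratio in size among probes well above background and on 1 side on both chips; for Gria1, the 3 nearest probes were named. A gene that this rule names for RWR is not reported here. The members and lists were chosen with earlier results of these data known. No probe or protein sequence was used here.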

Additional observations from a re-analysis of the deposited data

How the results depend on the processing

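With 1 pool per group and a pair of chips per comparison, no alternative tests the conditions, and each shows the effect of processing alone. No member was selected in WR under any alternative. In RWR the count was 0 under all alternatives but 2: leaving out 1 chip gave 0 to 1, and the fold cutoffs on the mean of the pair without a p-value filter, added after seeing the data, gave 1; both times it was Grik3. The median log2 ratio of the members in WR was 0.08, and ran from 0.082 to 0.124 with 1 chip left out. The number of probes outside the sedentary values of the same dye in RWR was 7 with Aquantile normalization and 2 with each dye centred on its median; the cause was not tested. The number of probes on 1 side on both chips was 6 to 7 in WR and 5 to 8 in RWR over the alternatives. The counts and medians took all member probes that a setting kept, and 1 probe per gene was a separate setting for them. Only the log2 ratios of single genes were taken from 1 probe per gene under every alternative. The sign of the mean changed in 6 of 110 values: Grik1 in WR (-0.06) and in RWR (-0.14), Grik2 in RWR (-0.06) and Grik4 in RWR (0.02) with a chip left out, and Grik3 in WR (-0.62) with a chip left out and (-0.00) with normexp. None of the 4 AMPA probes so used changed sign, while the other Gria4 probe, A_44_P323349, was at -0.03 in WR on chip 2 alone. The differences of RWR from WR had a median between -0.06 and -0.00. Signals near background limit what can be read for Grik3.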
